A study of Mus musculus with 6 samples.

Results

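The MS4A genes described here are Ms4a1, Ms4a4b, Ms4a4c, Ms4a6b, Ms4a6c, Ms4a6d and Ms4a7, 7 of 18194 genes with a probe set of their own, and they were followed in the livers of mice lacking SRC-2. Every probe set annotated with exactly 1 of these symbols was taken, which gave 15 of the 45101 probe sets on the array. The genes had been picked because several of them, neighbours on chromosome 19, were lower in SRC-2 null than in wild-type liver, so their differences between the genotypes are given as descriptions and not as tests. The SRC-2 null group (3 arrays) and the wild-type group (3 arrays) came from liver of female mice on a C57 background, all ovariectomized at 6 weeks of age and killed 2 weeks later under Avertin anaesthesia. The labels give the deletion as SRC-2-/-, without naming the allele, and it is not described as limited to a cell type. SRC-2, the product of Ncoa2, is a coactivator that nuclear receptors recruit to their target genes. Expression was measured from total RNA on short oligonucleotide arrays, as log2 values summarised per probe set by robust multi-array average (RMA).

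MS4A proteins (membrane-spanning 4-domains, subfamily A) cross the cell membrane several times and have both ends inside the cell. They sit beside immune receptors and adjust their signalling: MS4A1 is CD20, the B cell antigen targeted by therapeutic antibodies, MS4A2 is the beta chain of the high-affinity IgE receptor, and MS4A4B, a T cell protein, associates with the receptor GITR. In liver the genes are known from resident macrophages (Kupffer cells), monocytes and lymphocytes, and hepatocytes are not known as their main source. In whole liver RNA, fewer cells of a type and less RNA per cell cannot be told apart.

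Tissue and genotype were checked first. Of 9 hepatocyte genes, 9 were tested and limma called 0 (0 with an unadjusted p under 0.05), with a mean level between 12.75 and 12.77 on the null arrays and between 12.77 and 12.81 on the wild-type arrays. The brightest Ncoa2 probe set read 5.60, 5.44 and 5.86 in null and 7.74, 7.92 and 8.53 in wild-type liver. A second of its 4 probe sets was lower by a similar amount (log2 difference -2.16) and the other 2 were not called. The array medians lay between 4.17 and 4.24. Genes whose mean over the 6 arrays reached 4.21, the median of all probe sets, were tested with limma, which left 11895. Calls were made where the adjusted p (Benjamini-Hochberg over all tested genes) was under 0.05: 556 genes, 4.67% of those tested, of which 372 (3.13%) were lower and 184 (1.55%) higher in null liver. With the replicate number as a block, 307 genes were higher. When each array was centred on the median of the 9 hepatocyte genes, which is the fibrinogen gene Fgb on 6 of 6 arrays, the median of all tested genes moved to 0.13, Fgb's own log2 difference being -0.12, and the split became 192 lower and 256 higher. Centred on the mean of the same 9 genes, a setting chosen after seeing the data, the split was 339 lower and 240 higher, and the mean of the 9 had a log2 difference of -0.03. Replicate 3 of the null group and replicate 3 of the wild-type group deviated together from their genotype means (r = 0.517 across genes within these arrays), and against replicates 1 and 2 of the other genotype (r between -0.344 and -0.266). The deviations within a genotype cancel out, so the negative values follow in part from the positive one. Since replicate 3 stood apart, differences within replicates 1 and 2 and within replicate 3 are given beside the pooled ones. This was done for the brightest probe sets of Ms4a6b, Ms4a6d, Ms4a6c, Ms4a7 and Ms4a4b. With 3 arrays a genotype, precision is limited by their number.

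The 250 bases before the annotated start are shown for the pairs Ms4a6b and Ms4a6c and Ms4a4b and Ms4a4c, since the members of each pair lie close together in the cluster while their differences between the genotypes were of unequal size. The difference of Ms4a4c was read on dim probe sets only, too dim to be tested. The sequences are from RefSeq (GRCm38.p6), 5' to 3' on the gene's own strand, and capitals mark letters of a searched motif. The table held promoters of 5 of the 7 members, 6 promoters in all since Ms4a7 has an alternative start. Ms4a1 and Ms4a6d had no entry.
Ms4a6b, chr19:11518309-11518558, plus strand: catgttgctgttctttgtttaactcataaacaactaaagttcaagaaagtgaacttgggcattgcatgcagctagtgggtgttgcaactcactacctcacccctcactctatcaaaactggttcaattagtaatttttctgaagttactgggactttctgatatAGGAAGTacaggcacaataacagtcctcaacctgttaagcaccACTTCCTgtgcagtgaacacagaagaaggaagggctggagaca
Ms4a6c, chr19:11469118-11469367, plus strand: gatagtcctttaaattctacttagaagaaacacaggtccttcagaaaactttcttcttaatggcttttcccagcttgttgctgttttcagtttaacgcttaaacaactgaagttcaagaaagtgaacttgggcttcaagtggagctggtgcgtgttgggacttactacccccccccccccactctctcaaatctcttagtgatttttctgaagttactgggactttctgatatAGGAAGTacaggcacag
Ms4a4b, chr19:11443308-11443557, plus strand: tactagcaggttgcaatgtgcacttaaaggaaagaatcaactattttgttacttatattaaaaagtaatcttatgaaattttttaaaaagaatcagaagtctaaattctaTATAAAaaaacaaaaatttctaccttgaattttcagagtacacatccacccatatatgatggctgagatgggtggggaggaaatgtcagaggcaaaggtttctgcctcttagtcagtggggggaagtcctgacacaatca
Ms4a4c, chr19:11407411-11407660, plus strand: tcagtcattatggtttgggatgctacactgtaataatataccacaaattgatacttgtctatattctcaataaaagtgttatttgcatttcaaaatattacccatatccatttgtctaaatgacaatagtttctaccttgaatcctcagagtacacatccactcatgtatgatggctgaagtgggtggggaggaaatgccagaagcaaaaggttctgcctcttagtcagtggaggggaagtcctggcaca
The longest stretch shared letter for letter by Ms4a6b and Ms4a6c was 48 bases, beginning 118 bases before the start of Ms4a6b and 49 bases before that of Ms4a6c: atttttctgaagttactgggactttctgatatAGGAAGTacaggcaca. It lay inside an alignment in which 148 of 180 columns were identical (82.2%). Ms4a4b and Ms4a4c shared at most 20 bases in a row, ttctgcctcttagtcagtgg, beginning 41 bases before the start of Ms4a4b and 38 before that of Ms4a4c, inside an alignment in which 117 of 133 columns were identical (88.0%). The other 13 of 15 pairs of member promoters shared at most 7 to 9 bases in a row.

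The motifs searched on both strands were AGGAAGT (the core bound by PU.1, a transcription factor of myeloid and B cells), TGANTCA (AP-1), AGGTCA (a nuclear receptor half-site), CACGTG (an E-box) and TATAAA. The PU.1-like letters stood once in the Ms4a6c promoter, 17 bases before the start, and 2 times in the Ms4a6b promoter, 86 bases before it and, on the opposite strand, 43 bases before it. One of the Ms4a6b matches and the Ms4a6c match are the same letters of the 48-base stretch. Of 32851 promoter windows of the same length, 7.69% held this motif. TATAAA stood in the Ms4a4b promoter, 140 bases before the start (12.4% of windows), and TGATTCA in the second Ms4a7 promoter (6.75% of windows held the AP-1 letters). None of the 6 promoters held AGGTCA (14.0% of windows) or CACGTG (6.02% of windows), which says only that these letters are not in the windows searched. No motif match overlapped another.

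On their brightest probe sets Ms4a6b, Ms4a6d, Ms4a4b and Ms4a6c were lower on every SRC-2 null array than on any wild-type array, and Ms4a7, Ms4a4c and Ms4a1 overlapped. Of all tested genes, 12.5% were lower on every null array in this way. The largest of the 15 probe-set differences was that of Ms4a6b, a gene of the MS4A6 branch known in the mouse from T cells and macrophages. Its brightest probe set, 1418826_at, read 5.0, 4.92 and 5.07 in SRC-2 null livers, against 5.82, 6.10 and 6.02 in wild-type livers. The null arrays all lay below the wild-type arrays, and the gap was wider than the spread within either group. The means were 5.0 ± 0.08 in null and 5.98 ± 0.15 in wild-type liver (SD, n = 3 each), a log2 difference of -0.98 (SE 0.10), or 1.97-fold lower in null. The difference was -0.99 within replicates 1 and 2 and -0.95 within replicate 3. The second probe set, 1439956_at, read 2.72, 2.73 and 2.60 in null and 2.76, 2.98 and 2.97 in wild-type liver. These values did not overlap either, but they lie near the low end of the arrays, where the lowest values were 1.83 to 1.92 and RMA compresses differences.

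Ms4a6d, described in macrophages, had 3 probe sets. The brightest, 1419599_s_at, read 4.26, 4.34 and 4.09 in null and 5.01, 5.06 and 5.18 in wild-type liver. The groups did not overlap, and the means of 4.23 ± 0.13 in null and 5.09 ± 0.09 in wild-type liver (SD, n = 3 each) gave a log2 difference of -0.85 (SE 0.10), 1.81-fold lower in null. It was -0.73 within replicates 1 and 2 and -1.10 within replicate 3. The name of this probe set ends in _s_at, a class that can detect several related transcripts, so a related transcript cannot be told apart there. The probe set 1419598_at, with no such suffix, read 3.61, 3.35 and 3.63 in null and 4.06, 4.17 and 4.04 in wild-type liver, a log2 difference of -0.56 (SE 0.11) without overlap. The third, 1449539_at, read 2.10, 2.21 and 2.06 in null and 2.15, 2.14 and 2.10 in wild-type liver. The groups overlapped on this last probe set, at values close to the array minimum.

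Ms4a6c, described in monocytes and macrophages, was less uniform. Its brightest probe set, 1450234_at, read 5.06, 4.98 and 4.97 in null and 5.49, 5.07 and 5.69 in wild-type liver. The null arrays were tight and the wild-type arrays were not: wild-type replicate 2 lay just above the highest null array. The means were 5.01 ± 0.05 in null and 5.42 ± 0.31 in wild-type liver (SD, n = 3 each), a log2 difference of -0.41 (SE 0.15), with -0.26 within replicates 1 and 2 and -0.72 within replicate 3. Its other probe set, 1457725_at, read 4.09, 4.26 and 4.19 in null and 4.08, 4.59 and 4.39 in wild-type liver, and there the groups overlapped.

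Ms4a7, known from tissue macrophages, lay below the filter on both probe sets. The brighter, 1424754_at, read 3.87, 3.79 and 4.23 in null and 4.20, 4.53 and 4.32 in wild-type liver. Null replicate 3 overlapped the wild-type values, and the log2 difference of -0.39 (SE 0.14) was -0.54 within replicates 1 and 2 and -0.09 within replicate 3. The dimmer probe set, 1445365_at, read 2.41, 2.36 and 2.48 in null and 2.57, 2.68 and 2.60 in wild-type liver, without overlap but near the low end of the arrays.

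Among the members known from lymphocytes, Ms4a4b, the GITR-associated T cell gene, read 4.28, 4.25 and 4.14 in null and 4.74, 4.61 and 4.82 in wild-type liver on its brightest probe set, 1423467_at. The groups did not overlap, and the log2 difference was -0.50 (SE 0.09), or 1.42-fold lower in null, with -0.41 within replicates 1 and 2 and -0.68 within replicate 3. The null mean of 4.22 ± 0.08 (SD, n = 3) stood at the filter value, which is the median of all probe sets and not a limit of detection. Whether the difference is understated at this level was not tested. The other Ms4a4b probe set, 1425325_at, went the other way at a dim level: 3.01, 3.07 and 2.78 in null and 2.90, 2.75 and 2.67 in wild-type liver, with overlap. Ms4a4c, a close relative of Ms4a4b, lay below the filter. Its probe set 1420671_x_at read 4.16, 4.05 and 4.11 in null and 3.96, 4.18 and 3.93 in wild-type liver, with overlap, and 1450291_s_at read 2.69, 2.55 and 2.52 in null and 2.62, 2.66 and 2.87 in wild-type liver, also with overlap. Neither name has the plain _at ending, so a related transcript cannot be told apart on them.

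Ms4a1, which encodes CD20, also lay below the filter. Its brighter probe set, 1423226_at, read 3.47, 3.53 and 3.31 in null and 3.34, 3.46 and 3.24 in wild-type liver, with overlap and a log2 difference of 0.09 (SE 0.11). The dimmer one, 1450912_at, read 2.55, 2.32 and 2.38 in null and 2.58, 2.81 and 2.67 in wild-type liver, a log2 difference of -0.27 (SE 0.11) without overlap. The 2 probe sets thus point in different directions, both below the filter.

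**Figure D1:**
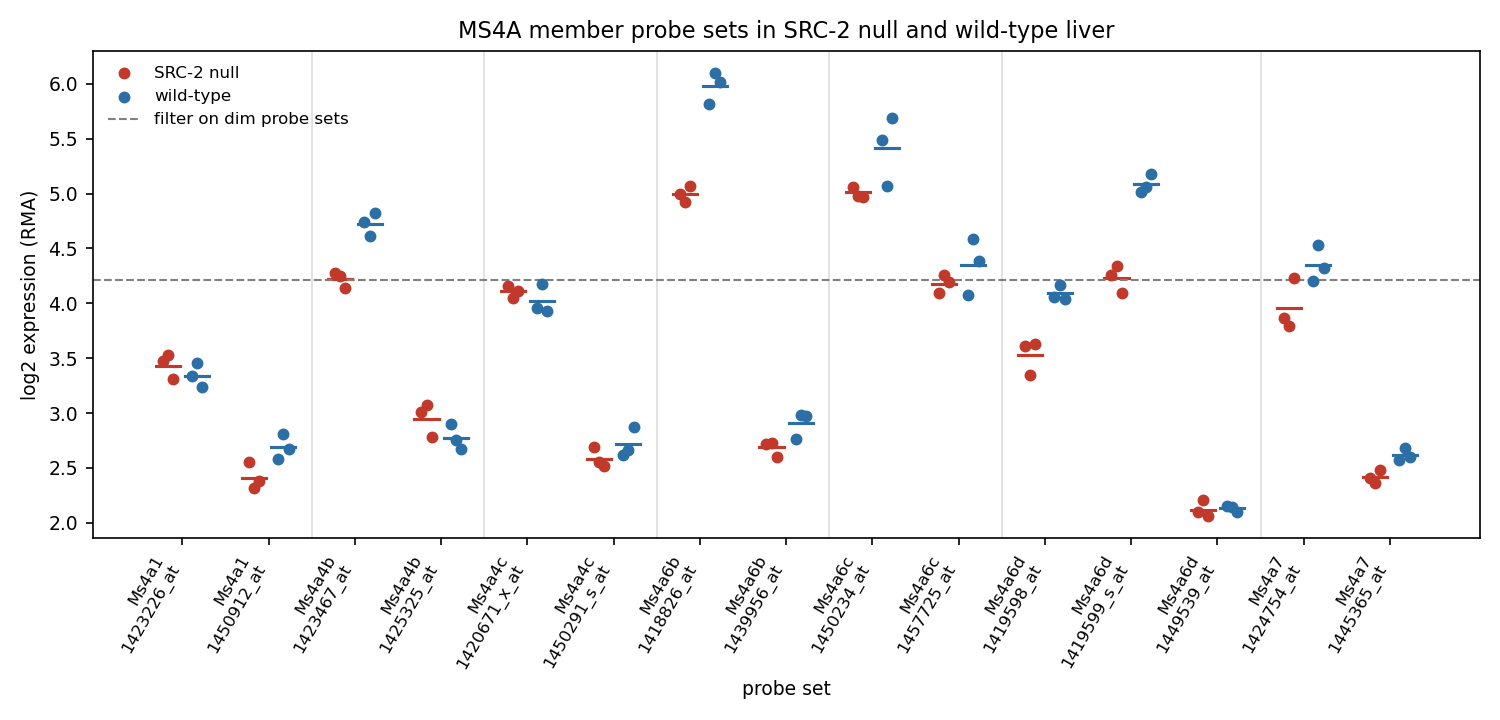
Log2 expression (RMA) of the 15 member probe sets, with 1 point per array, red for SRC-2 null and blue for wild-type liver, a bar at each group mean (n = 3) and a dashed line at the filter value of 4.21. The brightest probe sets of Ms4a4b, Ms4a6b and Ms4a6d separate the groups clearly, Ms4a6c less so, and 10 of the 15 probe sets have a mean over the 6 arrays below the line.

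Over the 15 probe sets, 5 passed the filter and 10 did not, and 4 of the 7 genes had a tested probe set. The null mean was below the wild-type mean for 12 probe sets and above it for 3, and the median log2 difference was -0.22, with a range from -0.98 to 0.18. Over all single-gene probe sets the median was 0.01, and 47.9% had a null mean below the wild-type mean. The null values all lay below the wild-type values for 8 of the 15 probe sets, where 8.15% of all single-gene probe sets did so. These were 4 of the 5 above the filter and 4 of the 10 below it. Of all dim probe sets 4.74% did so, and of all tested genes, on their brightest probe set, 12.5%. The fit over all genes called 3 members lower, Ms4a4b, Ms4a6b and Ms4a6d, beside 3.13% of tested genes. With each probe set tested on its own, 3 member probe sets were called lower, beside 1.79% of the probe sets above the filter. Since the genes were picked from this contrast, nothing is read from these shares. The same holds for which member calls are kept in the settings that follow, which describe the same arrays. Ms4a6b and Ms4a6d kept their calls without each array in turn, while Ms4a4b was no longer called when wild-type replicate 1 or 3 or any 1 of the null arrays was left out, in replicates 1 and 2 alone, and with arrays centred on Fgb, where its difference was -0.38. Centred on the mean of the 9 hepatocyte genes, Ms4a4b was called at -0.47. Ms4a6c became a call once wild-type replicate 2 was left out, with a difference of -0.58.

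**Figure D2:**
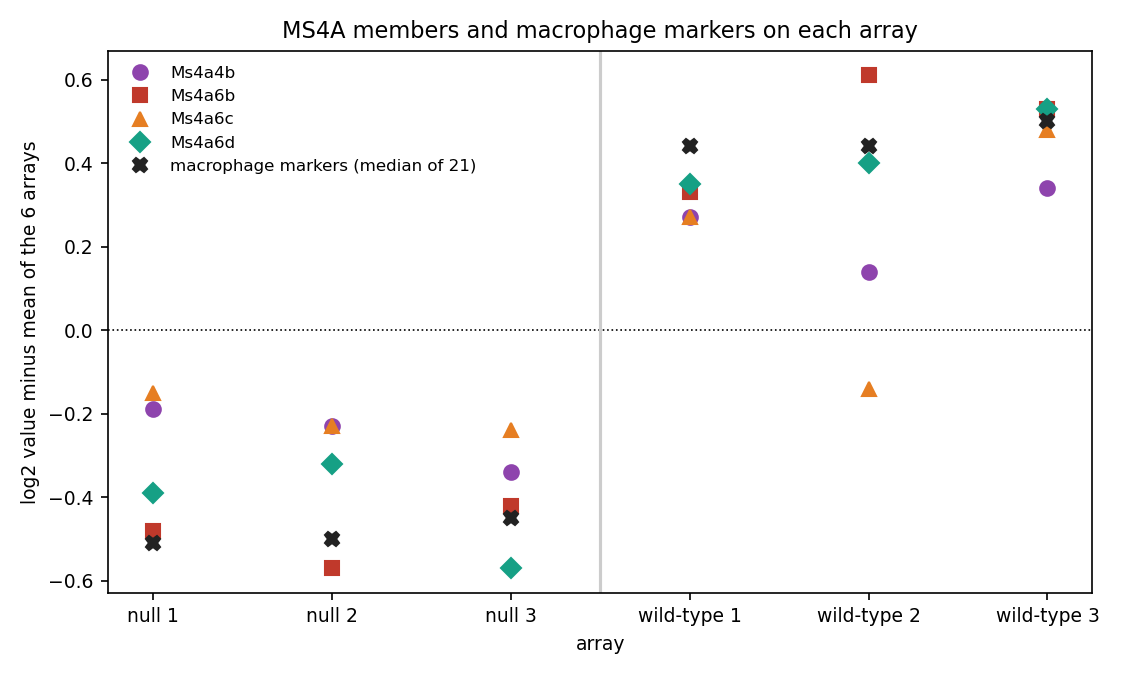
Log2 value on each array minus the mean of the 6 arrays, for the 4 members above the filter and for the median of 21 macrophage markers, with the 3 SRC-2 null arrays on the left and the 3 wild-type arrays on the right. Each series is below 0 on the null arrays and above 0 on the wild-type arrays, except Ms4a6c on wild-type replicate 2, at -0.14.

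The members followed each other between the genotypes but not always within them. Over the 6 arrays, Pearson's r was 0.98 between Ms4a4b and Ms4a6d, 0.96 between Ms4a6b and Ms4a6d, 0.91 between Ms4a4b and Ms4a6b and 0.68 between Ms4a6b and Ms4a6c. After each genotype's mean was taken out, r was 0.86 between Ms4a4b and Ms4a6c and 0.68 between Ms4a4b and Ms4a6d, but -0.50 between Ms4a4b and Ms4a6b and -0.40 between Ms4a6b and Ms4a6c. These 6-array values share the genotype difference and the arrays and describe these arrays only. Wild-type replicate 3 was the highest array for Ms4a4b, Ms4a6c and Ms4a6d, and wild-type replicate 2 for Ms4a6b.

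The other MS4A genes on the array were set beside the members. Of 12, namely 10 further Ms4a genes and Tmem176a and Tmem176b, whose products resemble MS4A proteins, 6 were tested and 0 were called by limma, 1 of them with an unadjusted p under 0.05. Their median log2 difference was -0.10, against 0.00 over all tested genes. The 1 was Ms4a8a, described in gut epithelium and in some activated macrophages, which read 4.39, 4.68 and 4.37 in null and 4.88, 5.14 and 4.93 in wild-type liver, without overlap. Its log2 difference was -0.50 (SE 0.12, 95% interval -0.76 to -0.23, limma adjusted p = 0.0514). With the replicate number as a block its limma adjusted p was 0.0127, without null replicate 2 it was 0.0449, and over its alternatives it ranged from 0.0127 to 0.191. Ms4a4d, which lies between Ms4a6b and Ms4a6d, read 5.80, 5.77 and 5.95 in null and 5.97, 5.85 and 6.44 in wild-type liver, a log2 difference of -0.25 (95% interval -0.60 to 0.10, limma adjusted p = 0.469). Ms4a15 and Ms4a3, the second a gene of myeloid precursors, had log2 differences of -0.02 (95% interval -0.34 to 0.31) and 0.04 (95% interval -0.25 to 0.33). Tmem176a and Tmem176b, at levels above 10 in both groups, had log2 differences of -0.05 (95% interval -0.25 to 0.14) and -0.14 (95% interval -0.32 to 0.04). The remaining 6, among them Ms4a2, lay below the filter with differences between -0.15 and 0.12.

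In the reference gene order of chromosome 19 the members run from Ms4a1 to Ms4a6d, with Ms4a5, Ms4a14, Ms4a4a, Gm8369 and Ms4a4d among them. Of the non-MS4A protein-coding genes among them or within 20 genes on either side, 13 were tested, 2 were lower in null liver and 0 were higher (0 higher at an unadjusted p under 0.05 in limma), beside 3.13% of tested genes called lower. Their median log2 difference was -0.03. Slc15a3, a lysosomal transporter of peptides and histidine found in macrophages, 15 genes before Ms4a1, was lower at 4.97 ± 0.12 in null and 5.75 ± 0.12 in wild-type liver (SD, n = 3 each, log2 difference -0.78, SE 0.10, limma adjusted p = 0.00321). Stx3, which encodes the membrane fusion protein syntaxin 3, 8 genes after Ms4a6d, was lower at 4.68 ± 0.10 in null and 5.30 ± 0.29 in wild-type liver (SD, n = 3 each, log2 difference -0.62, SE 0.14, limma adjusted p = 0.0498). The Stx3 call was lost without wild-type replicate 2 or 3 or any of the 3 null arrays, with limma adjusted p up to 0.172. It was also lost within replicates 1 and 2, with a batch term for replicate 3 and with arrays centred on their medians, on Fgb or on the hepatocyte mean. The 2 nearest tested non-MS4A genes before the cluster were Ccdc86 and Ptgdr2, a prostaglandin D2 receptor gene, at 0.13 and -0.13. After it they were Mrpl16, of the mitochondrial ribosome, at 0.01, and Stx3, at -0.62 as given above. On the whole chromosome 22 of 440 tested genes were called lower (5.0%), with the 3 members among them, and 7 were higher.

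**Figure D3:**
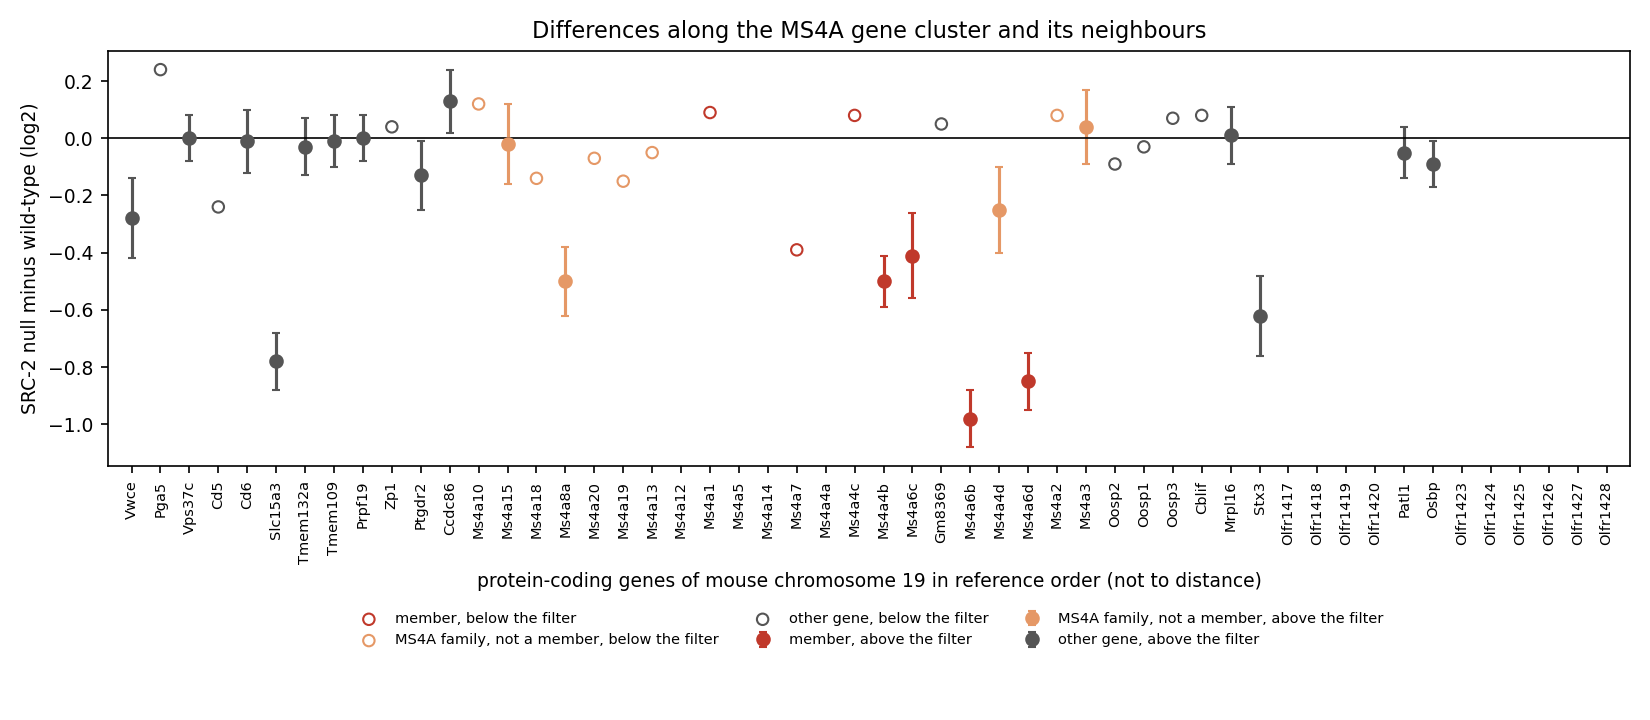
Log2 difference, SRC-2 null minus wild-type, for protein-coding genes of chromosome 19 in reference order, evenly spaced, with filled points and SE bars (n = 3 per group) for genes above the filter and open points for genes below it. Members are red, other MS4A genes orange and other genes grey. Ms4a6b, Ms4a6d and Slc15a3 are the lowest points, at -0.98, -0.85 and -0.78, and most genes between and beside them lie near 0.

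Receptors that MS4A proteins are known or proposed to act beside, with adaptors and kinases of such receptors, were lower in part. Of 8 tested, 3 were lower, 5 were not called and 0 were higher (0 higher at an unadjusted p under 0.05 in limma), with a median log2 difference of -0.54. Tyrobp, the DAP12 adaptor of myeloid receptors, read 6.17, 6.63 and 6.66 in null and 7.47, 7.38 and 7.61 in wild-type liver (log2 difference -1.0, SE 0.14, limma adjusted p = 0.00586). Fcer1g, the gamma chain shared by IgE and IgG receptors, was lower with a log2 difference of -0.82 (SE 0.15, limma adjusted p = 0.0173), a call lost without wild-type replicate 2 or null replicate 1 (limma adjusted p up to 0.0756) and within replicates 1 and 2. Clec7a, the beta-glucan receptor dectin-1, was lower with a log2 difference of -0.93 (SE 0.17, limma adjusted p = 0.0199), a call lost without wild-type replicate 1 or 3 or null replicate 1 or 2 (limma adjusted p up to 0.0820) and with arrays centred on Fgb. Cd79a and Cd79b, the signalling chains of the B cell receptor, had log2 differences of -0.62 (SE 0.23, limma adjusted p = 0.218) and -0.46 (SE 0.15, limma adjusted p = 0.152). With the replicate block Cd79a was lower at a limma adjusted p of 0.00598. The kinase genes Syk and Fyn had log2 differences of -0.37 and -0.29 and were not called, though Syk was called without null replicate 1 (limma adjusted p = 0.0419) and Fyn with the batch term for replicate 3 (limma adjusted p = 0.0465). Trem2 had a log2 difference of 0.06. Fcer1a and Tnfrsf18, the gene of GITR, lay below the filter.

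Markers of the cells the members are known from moved with them in part. Of 21 Kupffer cell and macrophage markers, 21 were tested, 18 were lower and 0 were higher (0 higher at an unadjusted p under 0.05 in limma), with a median log2 difference of -0.92. Their mean level lay between 6.90 and 6.93 on the null arrays and between 7.80 and 7.89 on the wild-type arrays, and none was below the filter. The scavenger receptor gene Marco had a log2 difference of -2.35 (5.10-fold lower), Timd4, a phosphatidylserine receptor gene, one of -1.40, Cd5l, a secreted macrophage protein gene, one of -1.15 and the complement gene C1qa one of -1.01. The median of the 21 was -0.88 within replicates 1 and 2 and -0.99 within replicate 3. Of 5 tested monocyte markers 3 were lower, with a median log2 difference of -0.73: Plac8 (-0.73), the IgG receptor gene Fcgr4 (-1.65) and Treml4 (-0.91), the last lost without any 1 of the 3 wild-type arrays or without null replicate 1 or 2 (limma adjusted p up to 0.108). Nr4a1, a nuclear receptor gene of patrolling monocytes, had a log2 difference of -0.37 and was not called. The mean level of the 5 lay between 5.42 and 5.79 in null and between 6.21 and 6.58 in wild-type liver, and Chil3 and Cx3cr1 were below the filter. Chil3, a chitinase-like gene, went the other way, at 3.72, 3.81 and 4.06 in null and 3.23, 3.03 and 3.49 in wild-type liver, without overlap. Ccr2, the chemokine receptor gene of inflammatory monocytes, had a log2 difference of -0.09, and the median of all 7 measured monocyte markers was -0.37. Chil3 and Ccr2 were named after their values were seen.

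Lymphocyte markers were mostly dim. Of 12 measured B cell genes 7 were below the filter, and of the 5 tested 0 were called by limma, 3 with an unadjusted p under 0.05. Their median log2 difference was -0.28, and their mean level lay between 4.4 and 4.57 in null and between 4.73 and 4.96 in wild-type liver. With the replicate block 1 was lower, Cd79a. Of the 7 dim ones Pou2af1, a B cell coactivator gene, read 2.87, 3.10 and 3.08 in null and 3.82, 3.56 and 4.19 in wild-type liver, and was called when no filter was used (log2 difference -0.84, limma adjusted p = 0.0226). Blnk, a B cell adaptor gene, had a log2 difference of -0.43 without overlap and the other 5 lay between -0.08 and 0.13. These dim genes were named after their values were seen. Of the tested ones Cd37 and Cd22 each had a log2 difference of -0.28. Of 4 tested plasma cell genes, Jchain and Mzb1, both of antibody secretion, were lower at -2.51 and -1.38, and Derl3 and Sdc1, at -0.18 and 0.11, were not called. The mean level of the 4 lay between 6.59 and 6.77 in null and between 7.64 and 7.73 in wild-type liver. Of 6 measured plasma cell genes 2 were below the filter and were not lower. Tnfrsf17 had a log2 difference of 0.28, higher in null without overlap, and Prdm1 one of 0.06. The median was -0.78 over the 4 tested and -0.06 over all 6. The 2 dim genes were also named after their values were seen. Of 13 measured T cell genes 7 were below the filter, and of the 6 tested 0 were called by limma, 1 with an unadjusted p under 0.05. Their median log2 difference was -0.03, with a mean level between 4.91 and 5.13 in null and between 5.03 and 5.12 in wild-type liver. Among the dim T cell genes only Cd5 did not overlap, lower in null at -0.24, and it was named after its values were seen. Cd3d had a log2 difference of -0.40 (limma adjusted p = 0.109, 0.0330 with the replicate block and 0.0397 without null replicate 3), and Lat, Cd8a and Cd4 had log2 differences of 0.14, 0.07 and -0.07. Of 6 tested NK and cytotoxic genes Ccl5 and Nkg7 were lower at -1.05 and -0.78, and Gzma and Il2rb, at -0.40 and -0.37, were not called. Of the 6, 5 were lower at an unadjusted p under 0.05 in limma. The median log2 difference was -0.39 over the 6 and -0.26 over all 11 measured. Il2rb was called without null replicate 3 (limma adjusted p = 0.0463) and in replicates 1 and 2 only (0.0483), and Gzma with the batch term (0.0373). The mean level of the 6 lay between 4.54 and 4.66 in null and between 5.06 and 5.10 in wild-type liver, and 5 further NK genes, Ncr1, Klrd1, Klrk1, Prf1 and Eomes, were below the filter.

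Lists of other cells gave few calls. Of tested dendritic, mast cell and basophil, and neutrophil genes (4, 4 and 6), limma called 0, and 1, 0 and 0 had an unadjusted p under 0.05. Their median log2 differences were 0.08, -0.05 and 0.05. Below the filter, the dendritic genes Clec10a and Itgax and the neutrophil gene Elane were lower without overlap, at -0.26, -0.11 and -0.30. The other dim genes of these lists overlapped. These dim genes were named after their values were seen. Of 10 measured endothelial genes 9 were tested and 0 were called, 1 with an unadjusted p under 0.05. This was Lyve1, at 0.56 (limma adjusted p = 0.0662, 0.0145 with the replicate block and 0.0176 without wild-type replicate 3). Emcn, below the filter, was higher in null without overlap, at 0.50 (limma adjusted p = 0.16 when no filter was used). It was named after its values were seen. Of 10 stellate cell genes Rgs5 was higher at 0.65, on 1 of its 4 probe sets when each was tested. The part of the macrophage, monocyte and lymphocyte markers in the differences of the MS4A members was not tested.

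**Figure D4:**
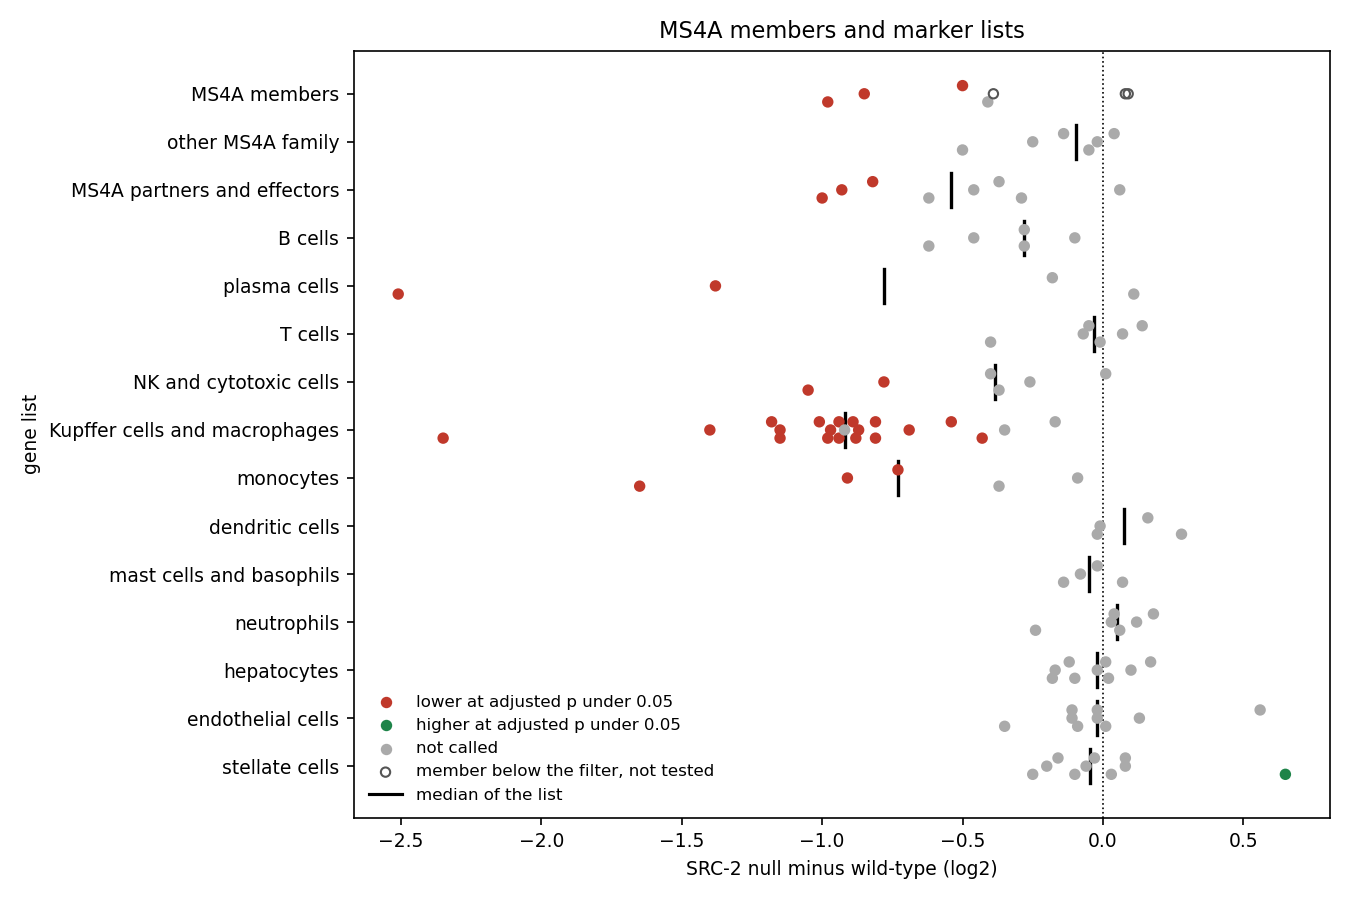
Log2 difference, SRC-2 null minus wild-type, with 1 point per gene, for the 7 MS4A members (brightest probe set) and each marker list. Red points were called lower, green points higher and grey points were not called, open points are members below the filter, and a black bar is the median of the tested genes of a list, not drawn for the members. The macrophage points centre on -0.92 while the hepatocyte, T cell, neutrophil and endothelial medians lie between -0.03 and 0.05. The plasma cell, monocyte, partner, NK and B cell medians lie between these, at -0.78, -0.73, -0.54, -0.39 and -0.28.

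The genes whose values over the 6 arrays were most like each tested member were sought among 360 tested genes with a range of at least 1 on the log2 scale, by Pearson's r over the 6 arrays. For Ms4a6b these were Il1r1, the interleukin-1 receptor gene (r = 0.993), Dmbt1, a secreted scavenger receptor gene (0.992), and the cytochrome P450 gene Cyp2g1 (0.991). Il1r1 averaged 7.38 in null and 8.53 in wild-type liver, and Dmbt1 3.15 in null and 7.15 in wild-type liver. For Ms4a6d they were the organic anion transporter gene Slc22a27 (r = 0.996), the AP-1 gene Jun (0.994) and the sterol enzyme gene Nsdhl (0.988). For Ms4a4b they were Ppp1r3g, a glycogen-targeting phosphatase subunit gene (r = 0.985), Dock10 (0.979) and H2-DMa, of class II peptide loading (0.978). For Ms4a6c they were H2-DMa (r = 0.920), the interferon-induced GTPase gene Gbp2b (0.899) and Epsti1 (0.896). After the genotype means were taken out, r for these pairs lay between 0.71 and 0.96. The pairs were picked by r over the same arrays, deviations included, so these values are high in part by the choice and nothing is read from them. The r over 6 arrays rests on 2 genotypes, so any gene with a clean genotype difference scores high, and all of these genes were called lower in null liver. The H2-DMa and Gbp2b calls were lost without null replicate 2 (limma adjusted p of 0.0593 and 0.0705), and that of Epsti1 when the first wild-type array or the first or second null array was left out (up to 0.0852).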

How the data were processed

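The log2 values were deposited by the authors in a processed table, 1 column per array, and the submitters' processing notes name RMA (robust multi-array average) as their source. Its version and the chip description were not stated in the labels. RMA corrects background, equalises the arrays and pools the probes of a set, so small values hold mostly background. Symbols came from the platform annotation. Of 45101 probe sets 34958 had exactly 1 symbol and 932 several. For each gene its brightest probe set by the 6-array mean was kept, and genes reaching 4.21, the all-probe-set median, were tested.

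Tests were two-sided and used limma 3.58.1 under R 4.3.3 (lmFit, then eBayes) on a design holding genotype alone. Standard errors of dim probe sets came from the same fit over all single-gene probe sets. The labels do not say that the arrays hold separate animals, so p-values set the genotype difference against a spread between these samples that is possibly technical. Identical values occurred in no pair of arrays. Same-numbered arrays deviated together from their genotype means (r of 0.18, 0.203 and 0.517 for replicates 1, 2 and 3), but so did null 2 with wild-type 1 (0.206) and null 1 with wild-type 2 (0.166), so replicate 3 stands apart while the numbers 1 and 2 do not pair arrays better than crossed ones. The labels state no pairing. The replicate number was a block in an alternative fit. The members and gene lists were chosen with earlier results of these data known. Named were the members, the tested further MS4A, partner and most alike genes, called and nearest tested neighbours, and for each marker list up to 4 tested genes with the smallest p. Ms4a19 was added to the family list from the annotation. Gene order and promoters came from RefSeq (GRCm38.p6). Promoters were compared by longest shared stretch and local alignment, measures chosen after the sequences were seen. The procedure was tested on simulated data. Figures used matplotlib 3.10.9 in Python 3.11.15.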

Additional observations from a re-analysis of the deposited data

How the results depend on the processing

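The number of genes called, 556 as reported, was 983 with a batch term for replicate 3, 329 in replicates 1 and 2 only and 362 when each probe set was tested, and between 275 and 438 without each array in turn. With the replicate block it was 832. The replicate block left the members called at 3 and raised the other MS4A family genes called to 1 (Ms4a8a). Of the other genes named, it gave calls to Cd79a, Cd3d and Lyve1 and took none away. Other MS4A family genes called, 0 as reported, were 1 with the batch term and with gene values averaged over probe sets, and 0 to 1 without each array in turn. Members called lower, 3 as reported, were 2 to 4 without each array in turn, a description only since the members were picked from these arrays. They were 0 with a filter at the 75th percentile, which no member reached, and 0 with the mean of all probe sets, where Ms4a6c alone of the members stayed above the filter. Neighbours of the cluster called, 2 as reported, were 1 in replicates 1 and 2 only, without a filter, with the mean of all probe sets, with each probe set tested, with arrays centred on their medians, on Fgb (the hepatocyte list's median) or on the hepatocyte mean (chosen after seeing the data), 0 with the 75th percentile filter, and 1 to 2 without each array in turn. The median over the 15 member probe sets, -0.22 as reported, was -0.10 with arrays centred on Fgb, -0.19 centred on the hepatocyte mean, and between -0.31 and -0.18 without each array in turn. Markers called lower, 25 over the cell type lists in the main fit and 18 of them macrophage markers, moved by less than 1.5 times in 17 of 17 alternatives. Smaller lists moved more. NK and cytotoxic genes called lower went from 2 to 0 with the 75th percentile filter. B cell and T cell genes called lower went from 0 to 1 in 3 of 17 alternatives each. In replicates 1 and 2 only, Ms4a4b, Fcer1g, Treml4, Stx3, Gbp2b and Epsti1 lost their calls and Il2rb and Lyve1 gained one. With the batch term Stx3 lost its call and Ms4a8a, Cd79a, Cd3d, Fyn, Gzma and Lyve1 gained one. Neighbours of the cluster called stayed at 2 with this term, Slc15a3 and a neighbour other than Stx3 that is not named here. Centred on Fgb, Ms4a4b, Clec7a, Treml4, Stx3 and Epsti1 lost theirs. Where not given above, the cause of a change was not tested. Signal over background limits Ms4a1, Ms4a4c and Ms4a7, which were not tested.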
